A study of Mus musculus with 4 samples.

Results

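The Cd300 genes described here are Cd300a, Cd300c2, Cd300ld and Cd300lf, 4 of the 18804 genes in the deposited expression table. They were picked by symbol, as receptors of the Cd300 family whose values were higher in knockout cells, so the FPKM values of these 4 genes in the knockout and WT libraries chose them. Those values are therefore given as a description, with no test. RNA-seq was done on group 1 innate lymphoid cells (ILC1s, liver-resident lymphocytes related to natural killer cells) of mouse liver. One group is labelled Cd200r knockout (replicates 1 and 2) and the other WT (replicates 1 and 3), 2 libraries each; all mice were at homeostasis and aged 5 to 8 weeks. CD200R is an inhibitory receptor, and the comparison asks how ILC1 transcripts differ when its gene is disrupted. The allele, the strain, the sorting gates, and whether a library came from 1 mouse or a pool are unstated in the labels, so the spread between replicates may be technical.

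CD300 proteins are single-pass receptors with an immunoglobulin-like domain that bind lipids exposed on dying or activated cells, such as phosphatidylserine, phosphatidylethanolamine and ceramide. The family is paired: CD300a and CD300lf carry tyrosine motifs (ITIMs) in long tails that recruit the phosphatases SHP-1 and SHP-2, whereas CD300c2 and CD300ld have short tails and signal through ITAM adaptors, above all the Fc receptor gamma chain. They are best known from macrophages, monocytes, dendritic cells, neutrophils and mast cells. In mice CD300lf is also the entry receptor of murine norovirus.

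In RefSeq annotation of GRCm38.p6, the assembly of mm10, 11 Cd300 genes lie side by side on chromosome 11, from 114889152 to 115135372. Cd300a (114889152 to 114901946) and Cd300lf (115116214 to 115135372) stand at the ends of this cluster of 246.2 kb. Cd300ld (114982443 to 114989886) and Cd300c2 (114996721 to 115004261) are neighbours inside it. RefSeq promoters, 250 bases before to 50 after the start that its promoter table uses (which can lie inside the span of the gene), were matched for all 4 genes. They are shown because genes of one cluster that were high in the same libraries can be set side by side at their starts. Capitals mark GAGGAAG, the core of sites bound by PU.1, a transcription factor of myeloid cells, or its reverse complement CTTCCTC.
Cd300a promoter, chr11:114889791-114890090, plus strand: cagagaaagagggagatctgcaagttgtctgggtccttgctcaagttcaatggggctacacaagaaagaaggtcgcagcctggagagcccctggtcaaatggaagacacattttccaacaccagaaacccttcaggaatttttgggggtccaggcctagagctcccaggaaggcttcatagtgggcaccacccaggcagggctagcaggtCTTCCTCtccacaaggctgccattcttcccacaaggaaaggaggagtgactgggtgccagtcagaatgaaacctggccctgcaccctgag
Cd300c2 promoter, chr11:115001831-115002130, minus strand: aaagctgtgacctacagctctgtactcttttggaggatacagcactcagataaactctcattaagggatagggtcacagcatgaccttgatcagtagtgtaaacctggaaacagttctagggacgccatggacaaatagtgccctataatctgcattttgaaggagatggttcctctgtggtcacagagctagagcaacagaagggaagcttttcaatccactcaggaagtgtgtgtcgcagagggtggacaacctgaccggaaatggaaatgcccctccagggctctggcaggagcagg
Cd300ld promoter, chr11:114989837-114990136, minus strand: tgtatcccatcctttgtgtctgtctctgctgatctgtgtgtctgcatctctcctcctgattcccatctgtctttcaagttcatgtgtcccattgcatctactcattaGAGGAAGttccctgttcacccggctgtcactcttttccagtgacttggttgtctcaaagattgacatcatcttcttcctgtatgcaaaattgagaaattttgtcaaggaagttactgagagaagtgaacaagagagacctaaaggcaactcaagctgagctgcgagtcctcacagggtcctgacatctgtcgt
Cd300lf promoter, chr11:115133943-115134242, minus strand: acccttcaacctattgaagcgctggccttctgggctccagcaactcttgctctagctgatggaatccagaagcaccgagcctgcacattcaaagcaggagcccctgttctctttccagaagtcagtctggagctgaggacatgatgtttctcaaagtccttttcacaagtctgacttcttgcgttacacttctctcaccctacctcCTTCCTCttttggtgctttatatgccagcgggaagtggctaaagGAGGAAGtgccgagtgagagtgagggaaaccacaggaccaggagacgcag
GAGGAAG occurred on either strand once in the Cd300a and Cd300ld windows, 2 times in that of Cd300lf and 0 times in that of Cd300c2. Of other Cd300 genes, the windows of Cd300ld3 and Cd300ld4 held this string, and those of Cd300c, Cd300e and Cd300lb did not. Among 32851 RefSeq mouse promoters of the same length, 13.6% held it. All motifs were searched on both strands. The Runx core TGTGGT was present in the windows of Cd300c2 and Cd300lf (16.8% of all promoters). The C/EBP pattern TTGNNCAA was present in that of Cd300a (6.4%), and TATAAA in that of Cd300lf (13.6%). The T-box core AGGTGT was in none of the 4 (13.7%). None of these motif matches overlapped another in the 4 windows. Between the 4 windows, 58.0% to 61.7% of bases were identical in global alignment. Pairs of these windows with those of Cd300c, Cd300e or Cd300lb had 57.7% to 62.7%, so the 4 did not stand out. The closest pair that included a member was Cd300ld with Cd300ld4, at 76.3%. No windows from outside the family were compared, so whether the 4 resemble each other more than unrelated promoters do was not tested. A match is a string of letters and was not tested as a binding site.

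All 4 genes were higher in both knockout libraries and low in WT. The deposited unit is FPKM, fragments scaled by gene length and by library total. The members lay between 1.78 and 4.42 FPKM in the knockout libraries, and between 0.29 and 0.766 FPKM in the WT libraries. None of the 4 was high in WT. In the knockout libraries 55.3% to 65.3% of all genes in the table had a lower value than a given member, and in the WT libraries 39.2% to 48.2%. Summed over the 4 genes, the level was 10.2 and 12.1 FPKM in knockout replicates 1 and 2, against 2.23 and 2.85 FPKM in WT replicates 1 and 3. In bulk RNA, fewer cells of a type and less RNA per cell cannot be told apart.

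Of the ITIM receptors, Cd300a (Entrez 217303) measured 3.09 and 2.0 FPKM in knockout replicates 1 and 2, and 0.29 and 0.65 FPKM in WT replicates 1 and 3. The groups did not overlap, but each was spread widely: knockout replicate 1 was 1.54 times replicate 2, and WT replicate 3 was 2.24 times WT replicate 1. Means were 2.54 ± 0.77 FPKM in knockout and 0.47 ± 0.255 FPKM in WT (SD, n = 2 each), a ratio of 5.41. On the log2(FPKM + 1) scale, which shrinks the change of low genes, the difference was 1.26. Cd300lf (Entrez 246746) measured 1.78 and 2.88 FPKM in knockout replicates 1 and 2, and 0.733 and 0.753 FPKM in WT replicates 1 and 3. Its WT values were nearly equal, whereas knockout replicate 2 was 1.62 times replicate 1. Means were 2.33 ± 0.776 FPKM in knockout and 0.743 ± 0.0145 FPKM in WT (SD, n = 2 each), a ratio of 3.14 and a log2 difference of 0.91.

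Of the short-tailed receptors, Cd300c2 (Entrez 140497) measured 3.43 and 4.42 FPKM in knockout replicates 1 and 2, and 0.625 and 0.766 FPKM in WT replicates 1 and 3. It was the highest of the 4 genes in both knockout libraries, and its lowest knockout value was 4.48 times its highest WT value, the widest gap of the 4. Means were 3.93 ± 0.7 FPKM in knockout and 0.695 ± 0.0998 FPKM in WT (SD, n = 2 each), a ratio of 5.65 and a log2 difference of 1.53. Cd300ld (Entrez 217305) measured 1.89 and 2.75 FPKM in knockout replicates 1 and 2, and 0.583 and 0.684 FPKM in WT replicates 1 and 3. The groups stood apart by 2.77 times at their nearest. Means were 2.32 ± 0.607 FPKM in knockout and 0.633 ± 0.0709 FPKM in WT (SD, n = 2 each), a ratio of 3.66 and a log2 difference of 1.01.

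**Figure D1:**
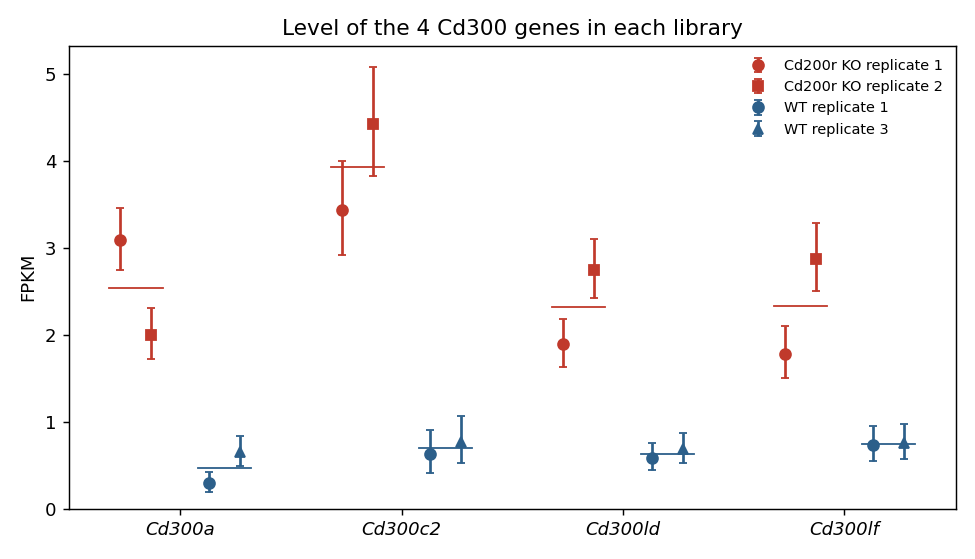
FPKM of each Cd300 gene in each library, knockout left of WT; bars are 95% exact Poisson intervals of the recovered reads and lines are group means. All knockout points lie at or above 1.78 FPKM and all WT points at or below 0.766 FPKM, with Cd300a highest in replicate 1 of the knockout and the other 3 genes highest in replicate 2.

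The knockout libraries did not order the genes alike. In knockout replicate 1 the order was Cd300c2, Cd300a, Cd300ld and Cd300lf; in replicate 2 it was Cd300c2, Cd300lf, Cd300ld and Cd300a. Cd300a made up 30.3% of the summed level of the 4 genes in replicate 1 and 16.6% in replicate 2. In WT replicate 1 the order was Cd300lf, Cd300c2, Cd300ld and Cd300a, and in WT replicate 3 Cd300c2, Cd300lf, Cd300ld and Cd300a, where the highest was 1.18 times the lowest. Cd300ld and Cd300lf differed from each other by less than the spread between replicates within the knockout group. In the WT group Cd300c2 differed by less than its own replicate spread from both Cd300ld and Cd300lf.

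The reads behind these values could be recovered. FPKM values are whole reads divided by a gene length and a library total, and the totals were inferred from single-exon genes. They came to 41164777 and 39493877 reads in the knockout libraries, against 39349312 and 38972600 reads in the WT libraries. The smallest gene length that gave whole reads, within 0.01 read, in all 4 libraries was taken; a multiple of it would give proportionally more reads. Cd300a then had 301 and 187 reads in knockout replicates 1 and 2, and 27 and 60 reads in WT replicates 1 and 3. Cd300lf had 140 and 217 reads in knockout and 55 and 56 in WT. Cd300c2 had 161 and 199 reads in knockout and 28 and 34 in WT, and Cd300ld 190 and 265 reads in knockout and 56 and 65 in WT. Every member was thus above 3 reads, the limit that a count of 0 allows, which corresponds to 0.0299 to 0.0676 FPKM for these genes. The 95% exact Poisson interval of Cd300a was 0.191 to 0.422 FPKM in WT replicate 1 and 0.496 to 0.837 FPKM in WT replicate 3, so its WT values differed beyond counting error. Those intervals cover counting error only, since amplified reads are not independent molecules.

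Reads of related genes can be shared. Among 50-base windows of GENCODE M21 transcripts, 3.89% of Cd300ld and 1.91% of Cd300lf windows occurred in another Cd300 gene, mainly in each other. Cd300c2 shared 7.16% and Cd300a 1.9% of their windows, with each other. The labels do not say how such reads were assigned.

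The values of the 4 genes were placed against all genes. Averaging 1 FPKM or more was required for a gene to be tested, which left 9476, and all 4 members were among them. They passed that filter only through their knockout values, because each lay under 1 FPKM in both WT libraries. Both knockout libraries were above both WT libraries for each of the 4 genes, a pattern that chose them; it was found in 24.3% of genes tested and in 18.9% of all 18155 genes above 0 in some library, while both knockout libraries were below both WT libraries in 21.7% of genes tested. Among the 119 tested genes that, like these, were under 1 FPKM in both WT libraries, it was found in 93.3%, because the filter keeps such a gene only if a knockout value is high. With a ratio of group means of at least 2 as well, 3.12% of genes tested had the pattern. The median log2 difference of all genes tested was 0.00 and the 90th percentile 0.33, while the members lay between 0.91 and 1.53.

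**Figure D2:**
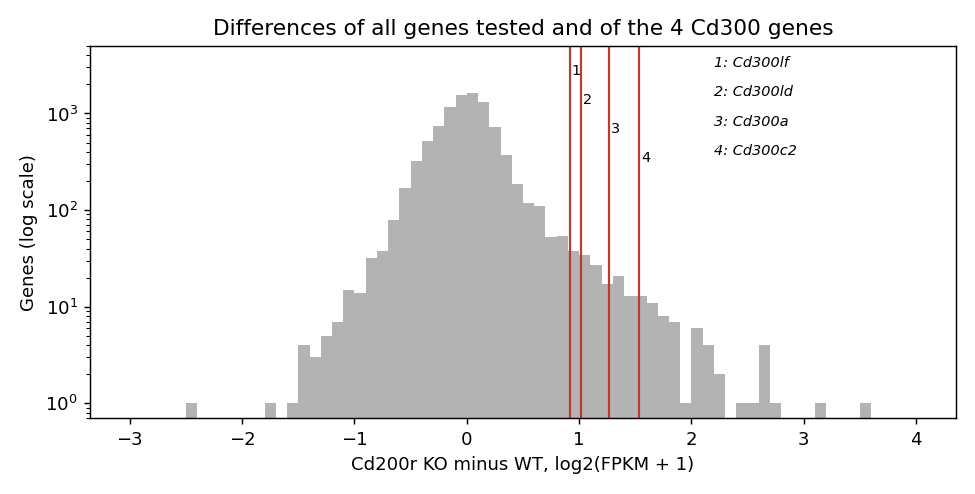
Number of genes (log scale) by the difference between knockout and WT in log2(FPKM + 1), for the 9476 genes tested; lines mark Cd300lf (0.91), Cd300ld (1.01), Cd300a (1.26) and Cd300c2 (1.53). The members lie in the upper tail, above the 90th percentile of 0.33, where the rule that chose them placed them.

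The table lists another 6 Cd300 genes, which did not share 1 pattern. Cd300lb, encoding a receptor that pairs with the adaptor DAP12, measured 1.42 and 1.87 FPKM in knockout replicates 1 and 2, and 0.895 and 0.349 FPKM in WT replicates 1 and 3. Its log2 difference was 0.72 (SE 0.25), and it did not pass the test (adjusted p = 0.187). This and all later tests are two-sided limma linear models with a mean-variance trend on log2(FPKM + 1), adjusted over all genes tested, with a threshold of 0.05. Cd300e, in humans an activating receptor of monocytes, measured 1.31 and 0.486 FPKM in knockout and 0.453 and 0.0937 FPKM in WT, under the filter. Knockout replicate 2 and WT replicate 1 of Cd300e differed by a factor of only 1.07.

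Cd300c and Cd300lg were above 0 only in WT, at values under the filter, so they were not tested and their direction is uncertain. For Cd300lg, WT replicate 1 was 37.6 times WT replicate 3. Cd300c was listed at 0 in both knockout libraries and at 0.4 and 0.162 FPKM in WT replicates 1 and 3. Cd300lg, which lies outside the cluster (102041511 to 102055617) and encodes a receptor of endothelium, was listed at 0 in both knockout libraries and at 0.353 and 0.00939 FPKM in WT replicates 1 and 3. Cd300ld3 was listed at 0.109 FPKM in knockout replicate 1 and at 0 elsewhere, and Cd300ld4 at 0.00714 and 0.00744 FPKM in the knockout libraries and at 0 in WT. Of the 50-base windows of Cd300ld3 and Cd300ld4, 82.1% and 93.8% occur in other Cd300 genes, so their low values are uncertain. Cd300ld2, Cd300ld5 and Cd300lh were not analysed here.

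**Figure D3:**
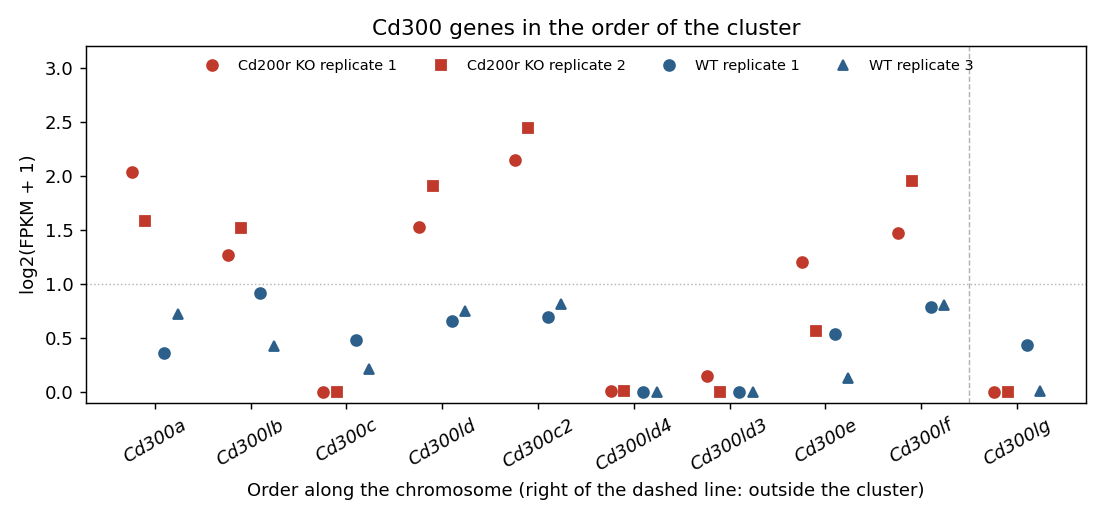
Level of the 10 Cd300 genes in log2(FPKM + 1) in each library, in the order of the cluster, with Cd300lg outside it at the right and a dotted line at 1 FPKM. The 4 described genes, Cd300lb and replicate 1 of Cd300e reach above that line in knockout libraries, while Cd300c and Cd300lg are at 0 there.

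Genes around the cluster were measured at their own levels. Of 26 listed neighbours that were measured, 19 were tested, and 0 rose and 0 fell, against 2.4% of all genes tested that rose and 0.939% that fell. By limma 0 of the 19 had an unadjusted p under 0.05. Nt5c (a nucleotidase, log2 difference 0.28, SE 0.13, adjusted p = 0.325) and Rpl38 (a ribosomal protein, 0.23, SE 0.11, adjusted p = 0.346) had the smallest p-values. Their median log2 difference was 0.00, equal to that of all genes. Rab37, a small GTPase on the list of neighbours, measured 53.4 and 51.8 FPKM in knockout and 57.0 and 58.9 FPKM in WT.

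The adaptors through which short-tailed CD300 receptors signal were far more abundant than the receptors and did not pass the test. Fcer1g, the Fc receptor gamma chain, measured 3414 and 3481 FPKM in knockout replicates 1 and 2, and 3678 and 3769 FPKM in WT replicates 1 and 3 (log2 difference −0.11, SE 0.07, adjusted p = 0.527). Tyrobp, encoding DAP12, measured 3983 and 4473 FPKM in knockout and 5167 and 4998 FPKM in WT (−0.27, SE 0.08, adjusted p = 0.132). Leaving out knockout replicate 2 brought Tyrobp past the threshold (adjusted p = 0.0205). Hcst, encoding DAP10, had a log2 difference of −0.08 (SE 0.08) and Cd247, encoding CD3 zeta, of 0.17 (SE 0.13). Thus 0 of 4 adaptors were called, against 3.33% of all genes tested, and their median was −0.10.

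Of 16 tested kinases and adaptors that act after ITAM chains, 1 rose, 1 fell and 14 did not pass, with a median of −0.08. The count that rose was 0 without knockout replicate 2. Plcg2, phospholipase C gamma 2, fell to 45.7 and 44.2 FPKM in knockout, against 65.8 and 67.7 FPKM in WT (−0.56, SE 0.10, adjusted p = 0.014), and did not pass without WT replicate 1 or without WT replicate 3. Syk, the kinase recruited by these chains, had −0.52 (SE 0.22, adjusted p = 0.287).

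Of 14 tested proteins that act downstream of ITIMs or beside them, 0 rose and 0 fell, with a median of −0.07. Ptpn6, encoding SHP-1, measured 243.1 and 230.3 FPKM in knockout and 276.7 and 263.2 FPKM in WT (log2 difference −0.19, SE 0.08, adjusted p = 0.316). Pik3cd, a catalytic subunit of PI3 kinase, had −0.51 (SE 0.15, adjusted p = 0.111). Leaving out knockout replicate 1 brought Pik3cd past the threshold (adjusted p = 0.00529). Sh2d1b1, the adaptor EAT-2, had −0.36 (SE 0.12, adjusted p = 0.166) and Dok2, a docking protein, −0.13 (SE 0.09, adjusted p = 0.541).

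Genes of the lipids that CD300 receptors bind did not pass. Of 10 tested scramblases and flippases, which move phosphatidylserine across the membrane, 0 rose and 0 fell, with a median of −0.08. Plscr4, a scramblase, had the smallest p (−0.56, SE 0.21, adjusted p = 0.213), followed by Atp11b, a flippase (0.36, SE 0.13, adjusted p = 0.219). Of 15 tested enzymes of sphingomyelin and ceramide, 0 rose and 0 fell, with a median of 0.02. Sgms1, sphingomyelin synthase 1, had 0.50 (SE 0.23, adjusted p = 0.334) and Degs1, which makes ceramide, 0.22 (SE 0.11, adjusted p = 0.389).

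Other phosphatidylserine receptors and bridging proteins, taken as 1 list with integrin chains among them, were different. Of 23 listed genes that were measured, 12 were tested, of which 5 rose, 0 fell and 7 did not pass, with a median log2 difference of 0.75 against 0.00 over all genes. C1qb, C1qc and C1qa, the chains of complement C1q, had log2 differences of 2.69, 2.76 and 2.24 (adjusted p = 6.2e-05, 0.00021 and 0.000513). Trem2, a lipid receptor of macrophages, rose to 2.54 and 2.17 FPKM in knockout, against 0.0887 and 0.157 FPKM in WT (log2 difference 1.58, SE 0.23, adjusted p = 0.0044). Itgb5, an integrin chain, also rose (1.11, adjusted p = 0.0446), but not without knockout replicate 2 or without WT replicate 1. Trem2 and Itgb5 were under 1 FPKM in both WT libraries and entered the test, and with it the count and the median, through their knockout values. With a filter of 5 FPKM the count that rose was 3. All 3 C1q genes are also on the macrophage list below, as is Clec4f, which did not pass.

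Receptors of myeloid cells built in the same paired way also rose in part. Of 36 such genes that were measured, 18 were tested, of which 7 rose, 2 fell and 9 did not pass, with a median of 0.65. Those that rose included Trem2, already counted among the phosphatidylserine receptors above. Clec4a2 and Lair1, both inhibitory, did not pass without knockout replicate 2. Clec4a1, a C-type lectin receptor, rose to 4.16 and 8.21 FPKM in knockout, against 0.832 and 0.313 FPKM in WT (log2 difference 2.15, SE 0.30, adjusted p = 0.0037). Fcgr2b, the inhibitory Fc gamma receptor, rose to 4.07 and 7.15 FPKM, against 0.375 and 0.656 FPKM in WT (2.09, SE 0.27, adjusted p = 0.0023). The 2 that fell were Lilrb4b, an immunoglobulin-like receptor at 92.3 and 98.9 FPKM in knockout against 148.1 and 149.2 FPKM in WT, and Cd200r1. Cd200r1, the gene targeted here, fell to 110.7 and 103.7 FPKM in knockout, against 161.5 and 173.3 FPKM in WT (log2 difference −0.64, SE 0.09, adjusted p = 0.00451). Its transcript was still abundant in the libraries labelled knockout; which exons the allele removes is unstated in the labels. Apart from Clec4a3, the receptors that rose were, like the 4 Cd300 genes, under 1 FPKM in both WT libraries and entered the test through their knockout values. With a filter of 5 FPKM the count that rose was 1.

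Of 8 tested transcription factors of myeloid cells, Spi1 rose, 0 fell and 7 did not pass, with a median of 0.29. Spi1, which encodes PU.1, measured 11.7 and 8.27 FPKM in knockout replicates 1 and 2, and 3.61 and 2.29 FPKM in WT replicates 1 and 3 (log2 difference 1.48, SE 0.24, adjusted p = 0.0069). Like Cd300a and unlike the other 3 members, it was higher in knockout replicate 1 than in replicate 2. Irf8 (0.40, adjusted p = 0.0949), Cebpb (0.32, adjusted p = 0.335) and Nr1h3 (0.66, adjusted p = 0.34), factors of macrophages and monocytes among others, did not pass. The count that rose was 2 without knockout replicate 1 and also 2 without knockout replicate 2; the added gene was Irf8 without replicate 1 (adjusted p = 0.0148) and Cebpb without replicate 2 (adjusted p = 0.0291).

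**Figure D4:**
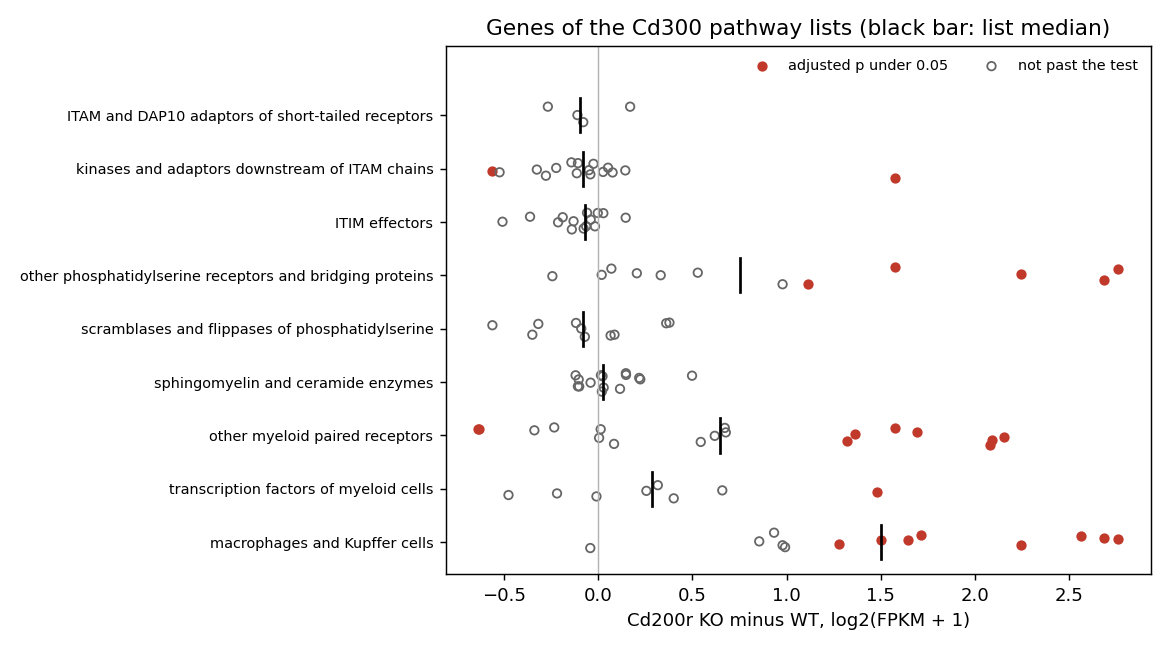
Difference between knockout and WT in log2(FPKM + 1) for each tested gene of the listed groups, filled where the adjusted p was under 0.05; black bars are list medians. The adaptor, kinase, ITIM and lipid enzyme groups centre near 0 (medians −0.10 to 0.02), while other phosphatidylserine receptors, paired receptors and macrophage markers centre at 0.75, 0.65 and 1.5.

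The marker lists did not all move alike. Many macrophage and conventional NK markers rose in knockout, most erythroid and platelet markers fell, and B cell markers did neither. On the ILC1 list, Ncr1 and Tbx21 were high in all libraries. Ncr1, the receptor NKp46, was at 1486 and 1505 FPKM in knockout and 1653 and 1748 FPKM in WT. Tbx21, the factor T-bet, was at 256.1 and 253.5 FPKM in knockout and 253.7 and 263.4 FPKM in WT. Conventional NK cells express both genes too, so their levels do not tell the 2 cell types apart. Of 20 macrophage and Kupffer cell markers 13 were tested, of which 8 rose, 0 fell and 5 did not pass, with a median log2 difference of 1.5. The 20 markers summed to 658.5 and 980.5 FPKM in knockout replicates 1 and 2, and 249.4 and 228.8 FPKM in WT replicates 1 and 3, of which Lyz2 was the largest part. None of the 20 was at 0 in all libraries; Siglec1 was at 0 in all but WT replicate 3, and the Kupffer cell genes Cd5l and Vsig4 did not pass (adjusted p = 0.964 and 0.322). Without knockout replicate 1 the count that rose was 12, and Vsig4 (adjusted p = 0.0046), Clec4f (0.00371) and Folr2 (0.0263) were then past the threshold. Conventional NK markers rose as well, 11 of 14 tested, with sums of 597.6 and 1071 FPKM in knockout and 437.0 and 453.7 FPKM in WT. Of 11 tested monocyte markers 4 rose and 0 fell, of 9 dendritic cell markers 4 rose and 1 fell, and of 5 neutrophil markers 2 rose and 1 fell. The monocyte markers that rose were Csf1r, also on the macrophage list, Ly6c2 and Cx3cr1, also on the conventional NK list, and Nr4a1. The dendritic cell markers that rose were the MHC class II genes H2-Aa, H2-Ab1 and H2-Eb1, and Cd74. Xcr1, Batf3, Cd209a and Ccr7 did not pass, and Itgax fell. Of mast cell and basophil, eosinophil and B cell markers 0 rose and 0 fell among 1, 1 and 5 tested. Of 8 T cell markers 1 rose, of 8 erythroid and platelet markers 7 fell, and of 9 hepatocyte and endothelial markers 1 rose, Fcgr2b. Of 14 ILC1 markers Gpr183 and Tmem176b rose and Cd200r1 fell. Tmem176b passed in only 6 of 13 alternatives; leaving out knockout replicate 1, or either WT library, ended its call. A marker under 1 FPKM in both WT libraries could enter the test only through its knockout values. With a filter of 5 FPKM, 6 macrophage, 9 conventional NK, 2 monocyte and 0 neutrophil markers rose, fewer than above. The T cell markers that rose were then 2, more than above. Several of these counts also moved with 1 library. Without knockout replicate 1, 3 ILC1 markers fell, 3 T cell, 1 eosinophil and 2 hepatocyte or endothelial markers rose. Without knockout replicate 2, 1 neutrophil marker rose and 2 dendritic cell markers fell. Without WT replicate 1, 1 ILC1, 2 T cell, 4 neutrophil and 1 mast cell marker rose, 1 B cell and 0 dendritic cell markers fell. Without WT replicate 3, 1 ILC1 and 3 hepatocyte or endothelial markers rose. The part of other cells in the Cd300 values was not tested.

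The 4 genes were set beside the macrophage marker sum of the same library. Cd300lf measured 0.271 and 0.294 FPKM per 100 FPKM of the markers in knockout replicates 1 and 2, and 0.294 and 0.329 in WT replicates 1 and 3. Cd300ld measured 0.287 and 0.28 in knockout and 0.234 and 0.299 in WT. For these genes the mean ratio in knockout was 0.906 and 1.07 times that in WT. Cd300c2 measured 0.521 and 0.451 in knockout and 0.25 and 0.335 in WT, without overlap and 1.66 times as high. Cd300a measured 0.469 and 0.204 in knockout and 0.116 and 0.284 in WT, which overlapped.

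These ratios moved with the markers chosen; the other denominators were added after seeing the data. Without Lyz2 the knockout to WT ratio was 1.26 for Cd300a, 1.22 for Cd300c2, 0.78 for Cd300ld and 0.66 for Cd300lf. The values of Cd300c2 then overlapped between the groups. Against C1qa, C1qb and C1qc alone the knockout to WT ratio was 0.785, 0.751, 0.48 and 0.405 in the same order. Cd300c2, Cd300ld and Cd300lf were then lower in both knockout libraries than in both WT libraries. Against the monocyte markers the ratio was 3.68, 3.68, 2.37 and 2.02, and against the conventional NK markers 3.36, 3.17, 2.02 and 1.70. In each of these 5 settings the ratio was lowest for Cd300lf and next lowest for Cd300ld. Within a setting the 4 genes share the same denominator in each library. That order therefore largely repeats their own knockout to WT ratios (3.14 for Cd300lf, 3.66 for Cd300ld, 5.41 for Cd300a and 5.65 for Cd300c2) and adds no separate result.

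**Figure D5:**
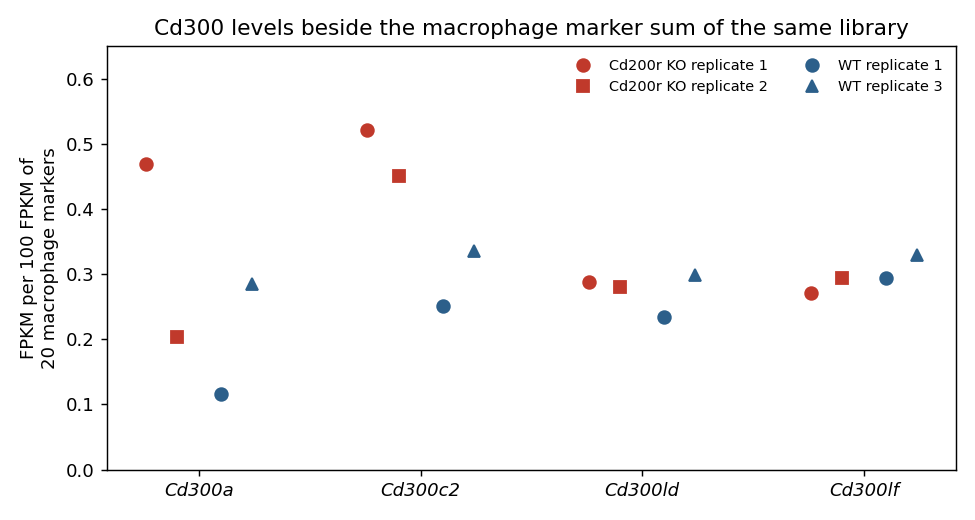
FPKM of each Cd300 gene per 100 FPKM of 20 summed macrophage markers in the same library, knockout left of WT. Cd300ld and Cd300lf lie between 0.234 and 0.329 in all 4 libraries, Cd300c2 lies higher in both knockout libraries (0.451 and 0.521), and Cd300a ranges from 0.116 to 0.469.

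The genes most like each member over the 4 libraries were found by the Euclidean distance between gene-centred log2(FPKM + 1) values, among protein-coding genes tested. With 4 libraries in 2 groups many genes lie close, so this is a description. For Cd300c2 the nearest were E2f1 (a cell cycle transcription factor, distance 0.12), Adgre1 (an adhesion receptor that marks macrophages, 0.12) and Pmaip1 (the apoptosis protein Noxa, 0.15). For Cd300ld they were Lrrc70 (0.08), Pla2g7 (a secreted phospholipase, 0.09) and Ly86 (the protein MD-1, 0.11). For Cd300lf they were Kng1 (kininogen, 0.06), Lgals3 (galectin-3, 0.10) and B3gnt5 (a glycosyltransferase, 0.10). For Cd300a they were H2ac24 (a histone, 0.15), Ehd3 (an endocytic protein, 0.16) and Dusp5 (a phosphatase of ERK, 0.16).

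Among the members, Cd300ld and Cd300lf were closest to each other, at a distance of 0.13. Cd300lf ranked 7 among the neighbours of Cd300ld, and Cd300ld ranked 6 among those of Cd300lf. The other pairs lay farther apart. Cd300c2 was at 0.53 from Cd300ld, 0.61 from Cd300a and 0.64 from Cd300lf, and Cd300a was at 0.66 from Cd300ld and 0.78 from Cd300lf. The pair that lay closest joins an ITIM receptor and a short-tailed one.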

How the data were processed

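The authors deposited a table of FPKM for 18804 genes in 2 Cd200r knockout and 2 WT libraries. Per the labels' protocols, total RNA was taken with TRIzol, reverse transcribed and amplified by a kit for full-length mRNA of single cells, then made into libraries with a transposase kit, which does not mark strand. HISAT2, fastp, DESeq2, HTSeq and R 3.2.0 are named, without roles, per the submitters' processing notes, which also name mm10. No scaling between libraries is stated. The 9476 genes averaging 1 FPKM or more were tested on the log2(FPKM + 1) scale with limma 3.58.1 in R 4.3.3 (trend, no covariate, Benjamini-Hochberg adjustment, threshold 0.05); the fit was checked on simulated data. Whole reads within 0.01 were recovered for 95.7% of the tested genes above 0 in all libraries, with lengths up to 10000 bases. No count test was run, because the deposited values are FPKM. Entrez identifiers were matched to RefSeq GRCm38.p6 (18290 of 18804). Promoters were aligned with Biopython 1.88. The members and lists were chosen with earlier results of these data known. Named genes are the members, other Cd300 genes, the adaptors, Cd200r1, up to 4 genes of smallest p per described list and 3 nearest patterns per member; genes named in the marker paragraph, Rab37, Itgb5 and other paired receptors beyond these were chosen after their values were seen. Planned protein comparisons were not made here, and some listed genes are counted but not reported singly here.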

Additional observations from a re-analysis of the deposited data

How the results depend on the processing

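All 4 members stayed higher in knockout under each of 10 alternatives, and a filter of 5 FPKM left none of them to measure. That direction is no separate support, because it chose the members. With both knockout values above both WT values, leaving out 1 library could not reverse it. With a pseudocount of 0.1 the differences were 2.26 for Cd300a, 2.34 for Cd300c2, 1.70 for Cd300ld and 1.49 for Cd300lf, and with 5 they were 0.46, 0.65, 0.38 and 0.35. Rescaled to TPM they were 1.63 for Cd300a, 1.86 for Cd300c2 and 1.28 for Cd300ld, because the added 1 then weighs less. Leaving out 1 library gave 1.04 to 1.49 for Cd300a, 1.39 to 1.68 for Cd300c2, 0.82 to 1.2 for Cd300ld and 0.67 to 1.15 for Cd300lf. Limma called 316 genes over the table and 256 to 574 with 1 library left out, the highest without knockout replicate 1. It called 70 without the mean-variance trend, and 0 of 18155 when no filter was applied, where 1898 had an unadjusted p under 0.05; the cause was not tested. Of 572 counts of called genes over the lists and alternatives, 507 were within 1.5 times the main count. A main count of 0 that stayed at 0 was also taken as within. Many lists had such counts, so 507 overstates how far calls held. With no filter each named call was therefore lost; without the trend calls lost included those of Plcg2, Itgb5, Spi1, Clec4a1, Clec4a3, Clec12a, Lair1, Lilrb4b, Cd200r1 and Tmem176b. Itgb5 passed in 4 of 12 alternatives. Without knockout replicate 1, 351 genes rose and 223 fell, against 227 and 89 in all libraries; without WT replicate 1, 56 fell. No paired analysis was made, because the labels name no pairing between knockout and WT libraries. Depth limits Cd300c, Cd300e, Cd300lg, Cd300ld3 and Cd300ld4, which were under the filter.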
